A study of Mus musculus with 6 samples.

Results

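The 10 genes described here encode the proteins that license origins of DNA replication (Cdc6, Cdt1 and the helicase subunits Mcm2, Mcm3, Mcm4, Mcm5, Mcm6 and Mcm7), the helicase activator Cdc45 and the sliding clamp Pcna. They were chosen by name, from these roles and as known E2F targets, and matched by symbol and gene identifier to 10 of the 55401 genes in each expression table. All 10 passed the filter on low values, among 14156 genes tested. Poly(A) RNA was sequenced from the mouse embryonic stem cell (mESC) line 46C, grown without feeder cells in serum with LIF and the inhibitors Chir99021 and PD0325901. Every group carried a lentiviral biotin ligase, and received in addition a vector with the biotin tag only (control), with biotin-tagged Rbbp4 (Rbbp4 OE) or with biotin-tagged Rbbp7 (Rbbp7 OE). No other treatment was given. Each group held 2 libraries from stably infected and drug-selected cells, and nothing in the labels says that the 2 came from separate infections, so p-values measure only the spread between these libraries. Rbbp4 and Rbbp7 are closely related histone chaperones found in several chromatin complexes.

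In G1 phase the origin recognition complex and Cdc6 recruit Cdt1 and the Mcm2 to Mcm7 hexamer, which is loaded onto DNA as an inactive helicase. In S phase Cdc45 and the GINS complex join it and turn it into the active helicase, while Pcna holds the polymerases on DNA. Cdt1 is destroyed in S phase and bound by geminin, so that origins fire no more than once per cycle. Transcription of many of these genes rises at the G1/S boundary under E2F factors, and mESCs spend much of their short cycle in S phase.

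The promoters of the 10 genes are given first, to show the E2F octamers that several of them hold. Since being an E2F target was part of the choice, the counts of octamers are a description and nothing is read from them. RefSeq promoters on GRCm38.p6, each running from 250 bases before the start site to 50 after it, were found for 9 of the 10 genes, all but Mcm4. They were searched on both strands for TTTCCCGC, TTTGGCGC, TTTCGCGC and TTTGCCGC, which may overlap each other. At least 1 octamer was present in 6 of the 9 genes, namely Mcm3, Mcm5, Mcm6, Mcm7, Cdc6 and Cdt1, and none was found in the windows of Mcm2, Cdc45 and Pcna. An octamer was held by 2.26% of all 32851 RefSeq promoters, and by 4.08% of the 12863 promoters of tested genes. The 250 bases upstream of Mcm5 (chr8:75109259-75109508, plus strand) and of Mcm6 (chr1:128359706-128359955, minus strand) are printed 5′ to 3′ on the strand of the gene, with octamers in capitals, because each holds a pair of overlapping octamers and both genes fell in Rbbp4 OE.
Mcm5: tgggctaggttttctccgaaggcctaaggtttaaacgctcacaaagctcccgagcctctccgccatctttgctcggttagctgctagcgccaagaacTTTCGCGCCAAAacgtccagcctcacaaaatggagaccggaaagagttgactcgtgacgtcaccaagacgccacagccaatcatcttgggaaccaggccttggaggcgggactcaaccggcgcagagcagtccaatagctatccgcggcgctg
Mcm6: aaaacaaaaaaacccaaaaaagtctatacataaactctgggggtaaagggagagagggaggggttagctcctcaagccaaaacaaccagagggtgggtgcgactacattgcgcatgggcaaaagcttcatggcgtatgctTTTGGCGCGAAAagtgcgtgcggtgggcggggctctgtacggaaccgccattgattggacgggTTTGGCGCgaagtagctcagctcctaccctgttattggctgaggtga

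For the other 4 genes short windows around the octamers are shown, again on the strand of the gene. Those of Mcm3 (chr1:20820278-20820301 and chr1:20820263-20820282, minus strand), Cdt1 (chr8:122568039-122568062, plus strand) and the second of Mcm7 (chr5:138171852-138171875, minus strand) lie after the start site. Those of Cdc6 (chr11:98908005-98908028, plus strand) and the first of Mcm7 (chr5:138172033-138172056, minus strand) lie before it, inside the longer bounds that GENCODE gives these genes.
Mcm3, window 1: cttccgtgGCGGGAAAacttggga
Mcm3, window 2: tgggaagtTTTGGCGCcaag
Mcm7, window 1: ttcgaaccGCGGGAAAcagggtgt
Mcm7, window 2: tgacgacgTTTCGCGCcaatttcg
Cdc6: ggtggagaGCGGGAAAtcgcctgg
Cdt1: actaccttTTTGGCGCcatggcgc
Mcm3 carried the octamer TTTGGCGC, as did Mcm5, Mcm6 and Cdt1. Any relation between octamers and fold changes was not tested.

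The unit of the tables is TPM, a share of transcripts corrected for transcript length and scaled to the same total in every library. Sequencing depth is therefore unknown, and each library listed between 19011 and 19691 genes above 0. The groups carried the RNA their labels name. Rbbp4 stood at 146 and 147 TPM in the controls, 270.0 and 271 under Rbbp4 OE, and 144 and 143 under Rbbp7 OE. Rbbp7 stood at 239 and 237 TPM in the controls, 208 and 217 under Rbbp4 OE, and 725 and 748 under Rbbp7 OE. The tables do not separate transgene from endogenous RNA. The 8 pluripotency markers had sums of 7621 to 7875 TPM in the controls, 8299 to 8573 under Rbbp4 OE and 8258 to 8472 under Rbbp7 OE, above control in both lines, and none of them was at 0. Dppa5a and Pou5f1 made up most of each sum and lay above both controls under Rbbp4 OE. Nanog, Klf4, Esrrb and Tfcp2l1 lay below both there, with log2 fold changes of -0.23, -0.45, -0.27 and -0.52. Sox2 and Zfp42 overlapped with control. Of all genes tested, 20.8% lay above both controls and 37.1% below. The summed levels of 6 fibroblast markers ran from 4.48 to 5.59 TPM in control, from 9.09 to 11.3 in Rbbp4 OE and from 8.75 to 15.5 in Rbbp7 OE, with Postn and Lum listed at 0 throughout. The 6 trophoblast markers ran from 5.76 to 6.91 TPM in control, from 3.51 to 6.28 in Rbbp4 OE and from 4.11 to 4.12 in Rbbp7 OE, with Prl3d1 listed at 0. The 7 primitive endoderm markers ran from 0.97 to 1.42 TPM in control, 1.41 to 2.49 in Rbbp4 OE and 1.83 to 3.29 in Rbbp7 OE. Upper ends of these ranges rest partly on 1 gene in 1 library, named after the values were seen. In the Rbbp7 OE libraries the fibroblast marker Col3a1 had 6.39 and 0.06 TPM, and the endoderm marker Dab2 2.01 and 0.16. In the Rbbp4 OE libraries the endoderm marker Foxa2 had 1.86 and 0.1 TPM, and the trophoblast marker Hand1 0.05 and 2.11. The 6 neural markers ran from 103 to 105 TPM in control, 120 to 122 in Rbbp4 OE and 95.04 to 96.5 in Rbbp7 OE, nearly all of it Tubb3, with Neurog2 listed at 0. The 7 markers of 2-cell-like cells ran from 1.91 to 2.57 TPM in control, 0.42 to 0.81 in Rbbp4 OE and 0.84 to 0.91 in Rbbp7 OE, with Tcstv3 and Gm6763 listed at 0. Mitochondrial genes took 8.97% and 9.78% of TPM in the controls, 10.45% and 9.89% under Rbbp4 OE, and 11.2% and 11.0% under Rbbp7 OE, above control in both lines. The part of the markers and of the mitochondrial share in the results was not tested.

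In control cells Pcna was the most abundant of the 10 transcripts and Cdc6 the least. Mean levels per transcript length were 477.5 ± 23.5 TPM for Pcna, 359 ± 11.7 for Mcm7, 351 ± 6.39 for Mcm5, 316.5 ± 6.10 for Mcm3, 269 ± 8.18 for Mcm2 and 237 ± 2.27 for Mcm6 (SD, n = 2). They went on with 188 ± 4.19 TPM for Cdt1, 142.5 ± 18.5 for Mcm4, 54.3 ± 0.403 for Cdc45 and 36.8 ± 4.09 for Cdc6 (SD, n = 2). Mcm7 and Mcm5 were the only neighbours in this order whose libraries overlapped. In both overexpressing lines Mcm3 came before Mcm5 and the order was otherwise the same. Mcm3 overlapped there with Mcm7 in Rbbp4 OE and with Mcm5 in Rbbp7 OE.

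**Figure D1:**
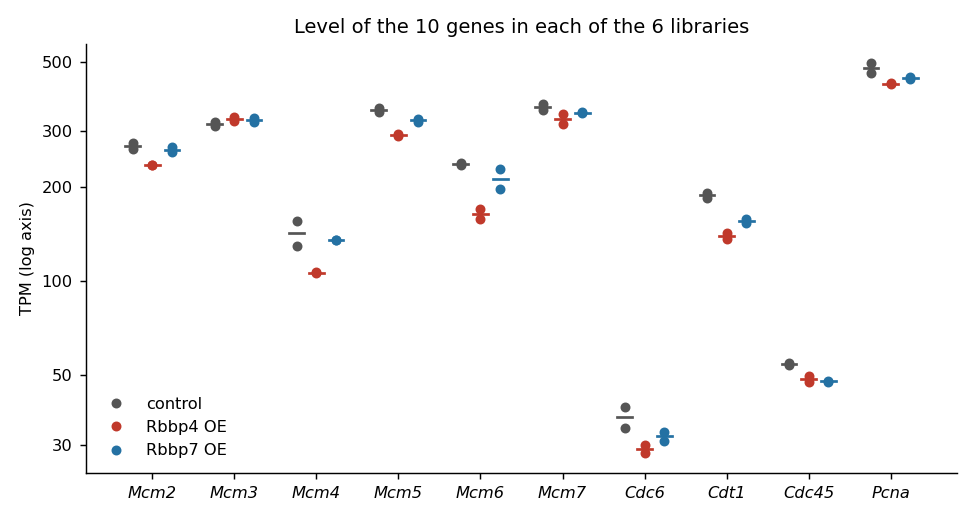
TPM of each of the 10 genes (log axis) in the control, Rbbp4 OE and Rbbp7 OE libraries, with 1 point per library and a bar at the mean of each group. Both Rbbp4 OE libraries lie below both controls for 9 of the 10 genes, and above them for Mcm3. Of all genes tested, 37.1% lie below both controls and 20.8% above.

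Rbbp4 OE was compared with control first. In Rbbp4 OE 4 of the 10 were called lower at a Benjamini-Hochberg adjusted p under 0.05 (limma), namely Cdt1, Mcm4, Mcm5 and Mcm6, and none was called higher. Among all genes tested 8.07% were called lower by this rule, 3.29% higher and 11.4% in either direction. On the scale of TPM + 1 the 4 genes fell by 16.6% to 30.8%, and none of the 10 passed the stricter call of adjusted p under 0.01 with a fold change over 2, by which 0.516% of genes were called. At an unadjusted p under 0.05 7 of the 10 were lower, against 20.6% of all genes. The median log2 fold change of the 10 genes was -0.23, and that of all genes tested was -0.08. In bulk RNA, fewer cells in the phase that transcribes these genes and less RNA per cell cannot be told apart.

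Cdc6, the loader that works with the origin recognition complex (chr11:98907801-98923940 on GRCm38), had 33.9 and 39.7 TPM in the controls, 28.2 and 29.9 under Rbbp4 OE, and 30.9 and 33.1 under Rbbp7 OE. Both overexpressing lines lay below control without overlap, and the 2 control libraries were far apart. Its log2 fold change under Rbbp4 OE was -0.33 with a 95% interval from -0.57 to -0.08, which did not pass the adjustment (adjusted p = 0.09, limma). In Rbbp7 OE it was -0.19, with an interval from -0.44 to 0.06 (adjusted p = 0.434, limma).

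Cdt1, which brings the helicase to the origin (chr8:122568015-122573554), had 185 and 191 TPM in the controls, 136 and 143 under Rbbp4 OE, and 153 and 158 under Rbbp7 OE. The 3 groups were fully separated, with Rbbp4 OE lowest. Cdt1 fell by 0.43 on the log2 scale in Rbbp4 OE (SE 0.0547, adjusted p = 0.0120, limma). In Rbbp7 OE the log2 fold change was -0.27 with an interval from -0.40 to -0.14, which did not pass after adjustment (adjusted p = 0.118, limma). Genes around Cdt1 also had low values. The 105 other tested genes that start within 5 Mb of it had a median log2 fold change of -0.31 in Rbbp4 OE and -0.25 in Rbbp7 OE, so that after centring each gene on its neighbours Cdt1 stood at -0.10 in Rbbp4 OE and was no longer called. What shifts this stretch of chromosome 8 was not tested. A readthrough gene model, Gm20388, overlaps Cdt1 on the same strand. It had 19.45 and 19.57 TPM in the controls, 17.1 and 16.8 under Rbbp4 OE, and 6.06 and 9.68 under Rbbp7 OE. Its log2 fold changes were -0.19 and -1.24, and any sharing of reads with Cdt1 was not tested.

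Geminin (Gmnn), the inhibitor of Cdt1, did not pass the test. It had 218 and 224 TPM in the controls, 238 and 257 under Rbbp4 OE, and 217 and 229 under Rbbp7 OE. The ratio of Cdt1 to Gmnn RNA was 0.846 and 0.850 in the controls, 0.571 and 0.556 under Rbbp4 OE, and 0.703 and 0.691 under Rbbp7 OE. The groups did not overlap in this ratio, to which no test was applied. How often ratios of other genes separate the groups was not counted, and Gmnn falls outside the rule by which list genes are named. The ratio also carries the low values around Cdt1, whose neighbours had medians of -0.31 in Rbbp4 OE and -0.25 in Rbbp7 OE.

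Mcm6 showed the largest drop in Rbbp4 OE among the 10 genes. This helicase subunit (chr1:128331590-128359664), whose upstream sequence with 3 octamers is printed above, had 235 and 238 TPM in the controls, 157 and 169 under Rbbp4 OE, and 196 and 227 under Rbbp7 OE. It fell by 0.53 on the log2 scale in Rbbp4 OE (SE 0.0822, adjusted p = 0.0181, limma), or by 30.8%. The Rbbp7 OE libraries lay between the other groups and apart from each other, with a log2 fold change of -0.16 and an interval from -0.36 to 0.04. The median of its 52 tested neighbours was -0.18 in Rbbp4 OE.

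Mcm4 (chr16:15623897-15637400) had 129 and 156 TPM in the controls, 107 and 106 under Rbbp4 OE, and 135 in both Rbbp7 OE libraries. The Rbbp7 OE values lay inside the range of the controls, which spread widely. Mcm4 fell by 0.41 on the log2 scale in Rbbp4 OE (SE 0.0904, adjusted p = 0.0408, limma), and in Rbbp7 OE its fold change was -0.07 with an interval from -0.29 to 0.15. Prkdc, a repair kinase gene that starts 466 bases away on the other strand, was listed at 1.87 to 2.79 TPM, with a log2 fold change of -0.29 under Rbbp4 OE and -0.08 in Rbbp7 OE.

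Mcm5 (chr8:75109569-75128439) had 346 and 355.5 TPM in the controls, 295 and 290.0 under Rbbp4 OE, and 328 and 322.5 under Rbbp7 OE. The 3 groups did not overlap. It fell by 0.26 on the log2 scale in Rbbp4 OE (SE 0.0437, adjusted p = 0.0210, limma), and in Rbbp7 OE the fold change was -0.11 with an interval from -0.22 to -0.00 (adjusted p = 0.313, limma). Unlike those of Cdt1 on the same chromosome, its 108 neighbours had a median of 0.01 in Rbbp4 OE, and Mcm5 was the only one of the 10 genes still called there after centring on neighbours.

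The other 3 subunits did not pass the test. Mcm2 (chr6:88883474-88898780) had 263 and 275 TPM in the controls, 234 and 235 under Rbbp4 OE, and 258 and 267 under Rbbp7 OE, with a log2 fold change of -0.20 under Rbbp4 OE (adjusted p = 0.0535, limma). Mcm7 (chr5:138164583-138172422) had 350.3 and 367 TPM in the controls, 340.5 and 317 under Rbbp4 OE, and 345 and 342 under Rbbp7 OE, with a log2 fold change of -0.12 under Rbbp4 OE (adjusted p = 0.185, limma). For Mcm2 the Rbbp4 OE libraries lay below control and Rbbp7 OE overlapped with it, and for Mcm7 both lines lay below control. Mcm7 overlaps Ap4m1 and Cops6 on the other strand and hosts Mir25, Mir93 and Mir106b, which were listed at 0.

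Mcm3 did not share the pattern of the other subunits. Mcm3 RNA (chr1:20802968-20820312) had 312 and 321 TPM in the controls, 323 and 334 under Rbbp4 OE, and 322 and 332 under Rbbp7 OE. It was the only one of the 10 genes whose overexpressing libraries all lay above both controls, by a small margin. Its log2 fold change under Rbbp4 OE was 0.05, with an interval from -0.06 to 0.17 (adjusted p = 0.491, limma), and 0.05 in Rbbp7 OE, with an interval from -0.07 to 0.16. Its 29 neighbours had a median of -0.18 in Rbbp4 OE.

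Because the 6 subunits form a hexamer, their shares of the summed Mcm2 to Mcm7 TPM were also compared. The sum was 1637 and 1712 TPM in the controls, 1456 and 1452 under Rbbp4 OE, and 1584 and 1626 under Rbbp7 OE. Mcm3 took 19.1% and 18.7% of it in the controls, 22.2% and 23.0% under Rbbp4 OE, and 20.3% and 20.4% under Rbbp7 OE. Mcm6 took 14.4% and 13.9% in the controls, 10.8% and 11.7% under Rbbp4 OE, and 12.4% and 14.0% under Rbbp7 OE. Both Rbbp4 OE libraries were above control in the shares of Mcm3 and Mcm7 and below it in those of Mcm4, Mcm5 and Mcm6. Mcm2 stayed between 16.1% and 16.4% in every library. Mcm7 took 21.4% in both controls and 23.4% and 21.9% under Rbbp4 OE. Mcm4 took 7.91% and 9.09% in the controls and 7.34% and 7.30% under Rbbp4 OE. Mcm5 took 21.2% and 20.8% in the controls and 20.25% and 19.97% under Rbbp4 OE. The shares divide 1 sum, so the share of a subunit can rise without a rise in its own TPM. The most abundant subunit exceeded the least, Mcm4, by 2.71 and 2.36 times in the controls, 3.19 and 3.15 times under Rbbp4 OE, and 2.56 and 2.53 times under Rbbp7 OE. Shares were described without a test.

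**Figure D2:**
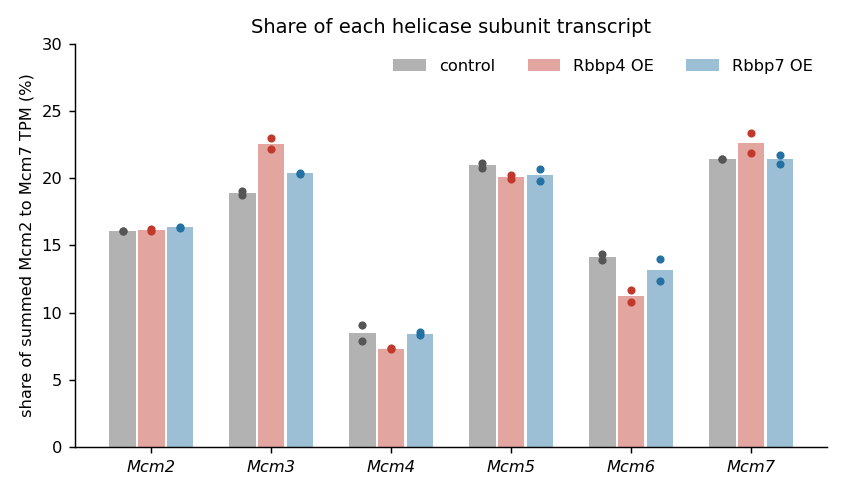
Share of each subunit in the summed TPM of Mcm2 to Mcm7 (percent), with bars at the mean of 2 libraries per group and 1 point per library. Mcm3 goes from 18.9% in control to 22.6% in Rbbp4 OE, and Mcm6 goes from 14.1% to 11.2%. Mcm7 goes from 21.4% to 22.6%, Mcm4 from 8.5% to 7.32% and Mcm5 from 21.0% to 20.1%.

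Cdc45, which activates the loaded helicase (chr16:18780447-18811987), had 54.0 and 54.6 TPM in the controls, 49.7 and 47.7 under Rbbp4 OE, and 48.0 and 47.7 under Rbbp7 OE. Together with Mcm3 it was the exception among the 10 genes in having a lower mean in Rbbp7 OE than in Rbbp4 OE, and for both genes those 2 groups overlapped. Its log2 fold change under Rbbp4 OE was -0.15 (interval -0.31 to 0.00) and -0.18 in Rbbp7 OE (interval -0.34 to -0.02), and neither passed after adjustment (adjusted p = 0.178 and 0.275, limma). Ufd1 starts 208 bases away on the other strand, with log2 fold changes of -0.10 and -0.04.

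Pcna (chr2:132249162-132253314) had 461 and 494 TPM in the controls, 425 and 427 under Rbbp4 OE, and 439 and 449 under Rbbp7 OE. Both lines lay below control, with a log2 fold change of -0.16 under Rbbp4 OE (adjusted p = 0.0836, limma) and -0.10 in Rbbp7 OE (adjusted p = 0.383, limma). Reads of Pcna can be shared with the processed pseudogene Pcna-ps2, which is 99.2% identical over 781 bases and was listed at 103 to 122 TPM. The summed level of both gave log2 fold changes of -0.16 and -0.10.

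**Figure D3:**
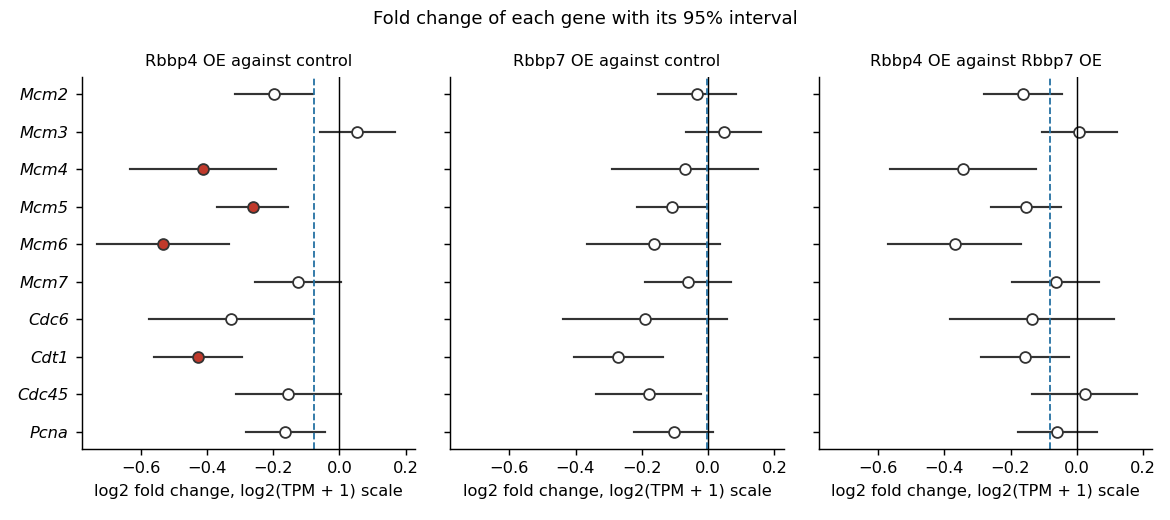
Log2 fold change of each gene on the log2(TPM + 1) scale in the 3 comparisons, with its 95% interval from limma. Filled points passed an adjusted p under 0.05, and the dashed line is the median of all genes tested. Only Mcm4, Mcm5, Mcm6 and Cdt1 are filled, all in Rbbp4 OE against control, where 8.07% of all genes were called lower.

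The calls in Rbbp4 OE depended on having all libraries in the fit. Without control replicate 2, either Rbbp4 OE replicate or either Rbbp7 OE replicate, 0 of the 10 genes passed an adjusted p under 0.05, with 5 to 7 of them at an unadjusted p under 0.05 (limma). Without control replicate 1 the genes that passed were not the same as in the full fit, and Mcm6 was not among them. Over the fits that left out a library, the log2 fold change of Mcm6 ran from -0.59 to -0.48. Direction was stable, since 9 of the 10 genes, all but Mcm3, had a log2 fold change below 0 in Rbbp4 OE under each of 18 alternative settings. Of all genes tested, 59% were below 0. Both Rbbp4 OE libraries lay below both controls for the same 9 genes, as for 37.1% of all genes tested, and above both for Mcm3, as for 20.8%. With the libraries rescaled by median-of-ratios factors, the median of all genes moved from -0.08 to 0.01 and that of the 10 genes to -0.13, and Cdt1, Mcm4 and Mcm6 were called. Under that scaling 48.1% of the genes called at an adjusted p under 0.05 were higher in Rbbp4 OE, against 29% in the scaling reported.

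Rbbp7 OE was then set against the same control libraries, so the 2 sets of fold changes are not independent. In Rbbp7 OE 0 of the 10 genes passed an adjusted p under 0.05 in limma, by which 0.487% of all genes were called. At an unadjusted p under 0.05 Cdt1, Cdc45 and Mcm5 were lower, 3 of 10 against 8.14% of all genes. The median log2 fold change of the 10 genes was -0.11 and that of all genes was -0.00. Both Rbbp7 OE libraries lay below both controls for 7 genes, as for 23.4% of all genes tested, and above both for Mcm3, as for 21.2%. The remaining 2, Mcm2 and Mcm4, overlapped with control.

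The lines were also compared with each other. In Rbbp4 OE against Rbbp7 OE 0 of the 10 genes passed an adjusted p under 0.05 in limma, by which 0.304% of all genes were called, and 5 were lower in Rbbp4 OE at an unadjusted p under 0.05, against 14.1% of all genes. Those 5 were Mcm2, Mcm4, Mcm5, Mcm6 and Cdt1. The largest differences were in Mcm6, with a log2 fold change of -0.37 and an interval from -0.57 to -0.17 (adjusted p = 0.125, limma), and Mcm4, with -0.34 and an interval from -0.56 to -0.12 (adjusted p = 0.151, limma). Both Rbbp4 OE libraries lay below both Rbbp7 OE libraries for 8 genes, as for 38.6% of all genes tested. The median of the 10 genes was -0.14, and that of all genes was -0.08. That 4 genes were called in Rbbp4 OE and 0 in Rbbp7 OE therefore does not show that the lines differ in these genes.

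**Figure D4:**
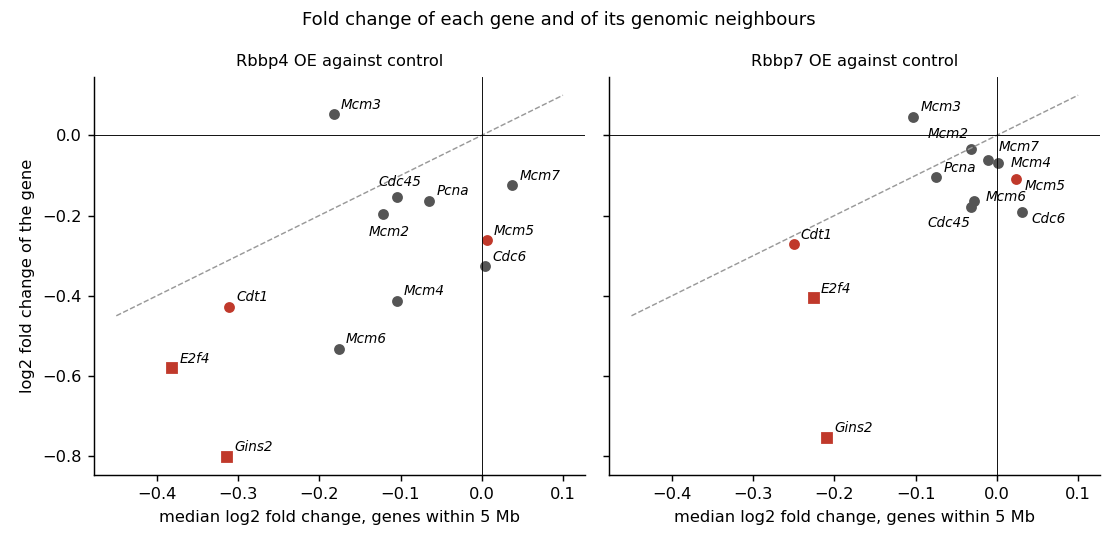
Log2 fold change of each of the 10 genes (circles) and of Gins2 and E2f4 (squares) against the median of the other tested genes that start within 5 Mb, in Rbbp4 OE (left) and Rbbp7 OE (right). Genes on chromosome 8 are red, the dashed line marks equal values, and Cdt1, Gins2 and E2f4 lie to the left, where neighbours have medians between -0.38 and -0.21.

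The other genes of the replication pathway were read from lists compiled by role, each gene being measured and tested. Upstream of loading, 0 of 10 origin recognition genes and loading partners and 0 of 11 licensing regulators passed an adjusted p under 0.05 in either line (limma). At an unadjusted p under 0.05 there were 3 of 10 and 8 of 11 genes in Rbbp4 OE, against 29.6% of all genes, and 0 in Rbbp7 OE, against 15.4%. The list medians in Rbbp4 OE were -0.13 and -0.22, and Gmnn at 0.16 was the only regulator above 0. Of 13 origin firing genes, Gins2 was called lower in each line and none of the other 12 was called. Of all genes, 8.07% were called lower in Rbbp4 OE and 0.487% were called in Rbbp7 OE. The median of the 13 was -0.18 in Rbbp4 OE, with 12 of them below 0, against 59% of all genes. Gins2, a subunit of the GINS complex that joins Cdc45 on the helicase, had 126 and 114 TPM in the controls, 69.4 and 67.3 under Rbbp4 OE, and 69.2 and 72.1 under Rbbp7 OE. It fell by 0.80 in Rbbp4 OE (adjusted p = 0.00577, limma) and by 0.75 in Rbbp7 OE (adjusted p = 0.0289, limma) on the log2 scale, estimates beyond those of all 10 licensing and firing genes. Like Cdt1 it lies on distal chromosome 8, where its 105 neighbours had medians of -0.31 and -0.21. Unlike Cdt1 it was still called in Rbbp4 OE after centring on neighbours. Over the 18 alternatives its log2 fold change ran from -0.87 to -0.47 in Rbbp4 OE and from -0.83 to -0.52 in Rbbp7 OE.

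At the replication fork 8 of 25 genes were called lower in Rbbp4 OE, against 8.07% of all genes, and none was called higher. In Rbbp7 OE 0 of the 25 were called and 5 had an unadjusted p under 0.05 (limma), against 15.4% of all genes. Rpa1, the large subunit of the single-strand binding complex, had 214 and 253 TPM in the controls, 110.3 and 110.4 under Rbbp4 OE, and 165 and 170.5 under Rbbp7 OE. It fell by 1.07 on the log2 scale in Rbbp4 OE (adjusted p = 0.00485, limma). The polymerase delta subunit gene Pold3 fell by 0.57 and the clamp loader gene Rfc5 by 0.38. The list had a median of -0.24 in Rbbp4 OE, next to -0.23 for the 10 licensing and firing genes.

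Among 13 E2F and pocket protein genes only E2f4, a mostly repressive E2F factor, was called, lower in each line. Of all genes, 8.07% were called lower in Rbbp4 OE and 0.487% were called in Rbbp7 OE. The list had a median of -0.19 in Rbbp4 OE, with 12 of 13 genes below 0, against 59% of all genes. E2f4 had 211 TPM in both control libraries, 141 and 140.3 under Rbbp4 OE, and 156 and 162 under Rbbp7 OE. E2f4 fell by 0.58 in Rbbp4 OE (adjusted p = 0.00552, limma) and by 0.41 in Rbbp7 OE (adjusted p = 0.0426, limma), and its 95 neighbours on chromosome 8 had medians of -0.38 and -0.23. After centring on them E2f4 stood at -0.22 in Rbbp4 OE and was no longer called. Of 16 other G1/S targets of E2F 5 were called lower in Rbbp4 OE, against 8.07% of all genes. In Rbbp7 OE 0 of the 16 were called and 5 had an unadjusted p under 0.05 (limma), against 15.4% of all genes. Ccne2, a cyclin that activates Cdk2 at S phase entry, had 8.18 and 12 TPM in the controls, 1.49 and 1.62 under Rbbp4 OE, and 5.17 and 4.77 under Rbbp7 OE. Ccne2 passed the stricter call in Rbbp4 OE, with a log2 fold change of -2.10 (adjusted p = 0.00679, limma). Rrm2, a ribonucleotide reductase subunit gene, fell by 0.39. Ccna2 and Chaf1a, from the same list, fell by 0.35 and 0.44 and are named after their values were seen.

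Of the 14 G2/M genes, 1 was called higher and 1 lower in Rbbp4 OE, against 3.29% and 8.07% of all genes. The list had a median of -0.16 there, and 10 of the 14 were below 0, against 59% of all genes. At an unadjusted p under 0.05 there were 7 of the 14 (limma), against 29.6%. The mitotic kinase gene Plk1 rose by 0.40, from 208 and 235 TPM to 293 and 289, and the spindle checkpoint kinase gene Bub1 fell by 0.58, from 38.1 and 36.1 TPM to 23.97 and 25.1 (adjusted p = 0.0217 and 0.0140, limma). None of the other 12 was called, and 0 of the 14 were called in Rbbp7 OE, where 2 had an unadjusted p under 0.05 (limma), against 15.4% of all genes.

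The calls of the list genes also varied with the libraries in the fit. In Rbbp7 OE neither Gins2 nor E2f4 kept its call in a fit of 5 libraries, whichever was missing, with adjusted p up to 0.22 and 0.3 over all alternatives (limma). In Rbbp4 OE, among the fits that left out a library, E2f4 lost the call only without Rbbp4 OE replicate 2, and Gins2 and Rpa1 without either Rbbp4 OE replicate. Ccne2 and Plk1 were called in 2 of these 6 fits, without either control replicate, and Pold3, Rfc5, Rrm2 and Bub1 in 1.

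**Figure D5:**
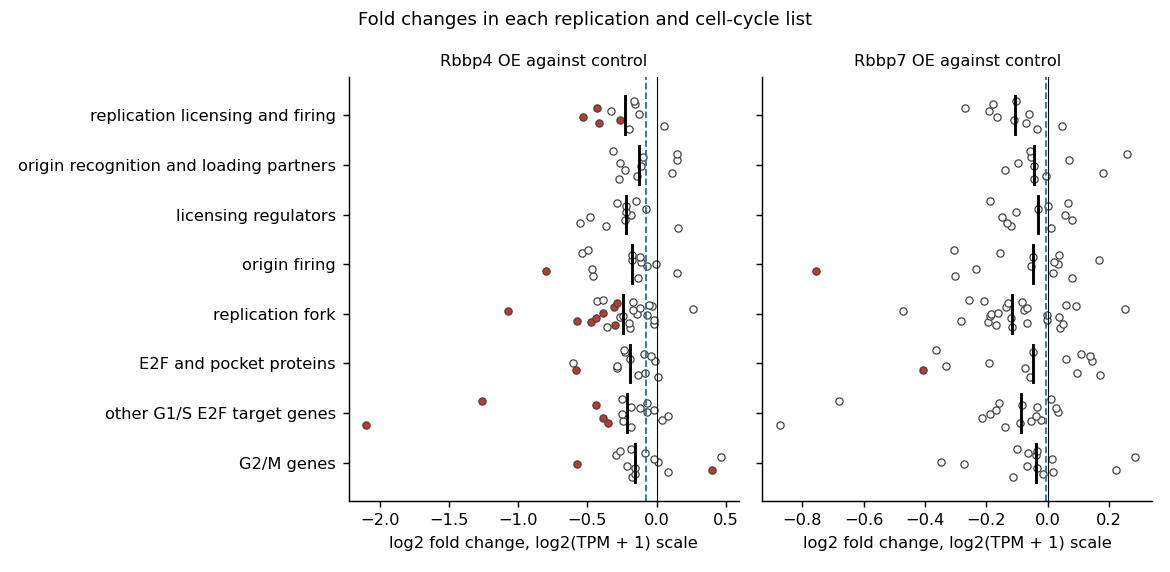
Log2 fold change of every tested gene in 8 lists of replication and cell-cycle genes, in Rbbp4 OE (left) and Rbbp7 OE (right) against control, with different x axes. Filled points passed an adjusted p under 0.05, black bars are list medians and the dashed line is the median of all genes. Filled points number 8 of 25 for the replication fork and 4 of 10 for licensing and firing in Rbbp4 OE. All of these were called lower, against 8.07% of all genes tested.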

How the data were processed

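Poly(A) RNA was measured in 6 libraries, 2 per group, grouped from the sample labels. The authors used Trim_galore for trimming, STAR for alignment to mm10 and RSEM for quantification. They deposited TPM values per gene and library, which keep no depth, so no counting interval is given. Names, positions and transcripts came from a GENCODE annotation on GRCm38 (55141 of 55401 genes matched), earlier than the release the study used.

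The study used a count test. TPM values are not counts, so log2(TPM + 1) was tested with limma-trend (limma 3.58.1, R 4.3.3) for genes with a mean of at least 0.5 TPM, all 3 groups in 1 fit without covariates (3 residual and 3.103 prior degrees of freedom), with Benjamini-Hochberg adjustment over 14156 genes. Fold changes on this scale understate those of low genes. The test was also run on simulated data. No outcome of that run is given here, and nothing about the calls is read from it. No pair of libraries shared the same TPM in more than 1.74% of tested genes.

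The 10 genes and all lists were chosen with earlier results of these data known. Beyond the 10 genes, Rbbp4 and Rbbp7, the text names up to 3 called genes per list and comparison with the smallest p, and the 5 genes most like the mean of the 10. A called gene of the G1/S list that this rule would name is not reported here. Alternatives covered pseudocount, filter, scaling, spread estimate, samples in the fit, a replicate block and each library left out. Centring on neighbours within 5 Mb and a GC and length correction were added after seeing the data.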

Additional observations from a re-analysis of the deposited data

Results flagged for a closer look

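Among the 10 licensing and firing genes, the genes of the lists and the overexpressed genes, only the last differed between the overexpressing lines by the direct test. In Rbbp4 OE against Rbbp7 OE the log2 fold change was 0.91 for Rbbp4 and -1.79 for Rbbp7 (adjusted p = 0.00192 and 8.31e-05, limma). None of the 10 licensing and firing genes, and no gene of the lists, passed that test, by which 43 of all genes tested were called.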

How the results depend on the processing

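Over 18 alternatives and 3 comparisons, values of the 10 genes kept direction and side of adjusted p 0.05 in 496 cases, lost a call in 33, gained one in 4 and reversed in 7. Most of the unchanged cases had no call to lose. The lost calls were those of the 4 genes called in Rbbp4 OE. Mcm4 lost its call in 11 of 18 alternatives, Mcm6 in 8, and Mcm5 and Cdt1 in 7 each. In each setting that leaves out 1 library, a group is left with 1 sample that is assumed to vary like the others. Strict calls need an adjusted p under 0.01 with more than a 2-fold change, and calls an adjusted p under 0.05. Where no cause is given, the cause was not tested. With 2 libraries per group and unknown depth, small differences cannot be resolved.

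Without each replicate in turn, Rbbp4 OE against control gave 0 to 40 strict calls (73 with all libraries), 47 to 1574 calls (1609), 0 to 5 of the 10 genes called (4) and a median of the 10 genes from -0.25 to -0.19. Rbbp7 OE against control gave 0 strict calls (5), 2 to 53 calls (69) and a median from -0.164 to -0.0673. Rbbp4 OE against Rbbp7 OE gave 0 to 42 strict calls (7) and 8 to 98 calls (43). Of single genes, Mcm4 in Rbbp7 OE ranged from -0.201 to 0.062 and was above 0 without control replicate 2. Between the lines Cdc45 ranged from -0.0058 to 0.0543, below 0 without the replicate 1 library of Rbbp4 OE. Mcm3 ranged from -0.0173 to 0.031, below 0 without Rbbp4 OE replicate 2 or Rbbp7 OE replicate 1.

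In Rbbp4 OE against control there were 31 strict calls with a pseudocount of 5. Without a filter there were 4 strict calls, 709 calls and 2 of the 10 genes called, with more genes tested. With median-of-ratios scaling there were 48 strict calls and a median of -0.13, after centring on neighbours 39 strict calls, 1 of the 10 genes called and a median of -0.14, and after the GC and length correction a median of -0.18. A fit of only the 2 groups compared, with fewer libraries, gave 1 strict call, 158 calls and 1 of the 10 genes called, Mcm6.

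In Rbbp7 OE against control there were 2 strict calls and 9 calls without a filter, 8 and 137 with a mean of at least 5 TPM, 36 calls with median-of-ratios scaling, 28 after centring on neighbours, and 0 strict calls and 1 call in the 2-group fit. Rbbp4 turned to 0.004 with quantile normalization and 0.0185 after the GC and length correction, and Mcm2 to 0.0225 after centring.

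In Rbbp4 OE against Rbbp7 OE there were 4 strict calls and 28 calls without a filter, 20 calls with median-of-ratios scaling, 2 strict calls with nuclear protein-coding genes rescaled, 27 calls after centring and 8 in the 2-group fit. The median of the 10 genes was -0.0484 with median-of-ratios scaling, -0.10 with quantile normalization and -0.0848 after centring. Under median-of-ratios scaling Mcm7 turned to 0.0329, Pcna to 0.038 and Gins2 to 0.0487, and Gins2 also to 0.0011 with quantile normalization and 0.0517 after centring.

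The labels give all groups replicate numbers 1 and 2, but same-numbered libraries did not deviate together across genes (correlations of -0.03, 0.03 and -0.03). With 1 replicate difference per group, this cannot show whether same-numbered libraries shared a culture or preparation, and the main fit treats them as unpaired. With a replicate block, Rbbp4 OE against control had 4 strict calls and 900 calls, 3 of them among the 10 genes (Mcm5, Mcm6 and Cdt1), Rbbp7 OE against control 9 calls, and Rbbp4 OE against Rbbp7 OE 9 calls.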

Other observations

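Over the 6 libraries, the genes outside the list whose levels were most like the mean of the 10 genes, among 9025 genes with a mean of at least 5 TPM, were Hspa13 (Pearson r = 0.999), Nfatc2ip (0.998), Mlec (0.998), Fam160b1 (0.997) and Pgm3 (0.997). The r values are descriptions over libraries that fall into 3 groups. Mlec, an endoplasmic reticulum lectin gene, had 112 and 125 TPM in the controls, 81.8 in both Rbbp4 OE libraries, and 97.0 and 101 under Rbbp7 OE. Nfatc2ip had 109 and 126 TPM in the controls, 80.6 and 82.1 under Rbbp4 OE, and 97.8 and 101 under Rbbp7 OE. Each of the 5 was lowest in Rbbp4 OE and highest in control. That order follows from choosing them by likeness to the mean of the 10 genes, and nothing is read from it.

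Among the marker lists, Pou5f1 rose by 0.25 and Nanog and Tfcp2l1, other pluripotency factor genes, fell by 0.23 and 0.52 on the log2 scale in Rbbp4 OE. None of the 8 was called in Rbbp7 OE. Of all genes, 3.29% were called higher and 8.07% lower in Rbbp4 OE, and 0.487% were called in Rbbp7 OE. Thy1, from the fibroblast list, rose by 0.96 in Rbbp4 OE to 8.87 and 10.8 TPM, from 4.13 and 5.02 in control, and made up nearly all of the summed fibroblast markers there (9.09 and 11.3 TPM). The other tested members, Col1a1 and Col3a1, had log2 fold changes of -0.07 and 0.01 in Rbbp4 OE and were not called. These 6 genes are named after their values were seen.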
